A study of Mus musculus with 183 samples.

Results

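The mRNAs of 10 genes that keep mouse heterochromatin silent were followed: Trim28, Setdb1, Dnmt1, Uhrf1, Cbx1, Cbx3, Cbx5, Ehmt1, Ehmt2 and Atrx. They were chosen by name, as writers, readers and anchors of repressive chromatin, among the 53380 genes of a count table from an RNA half-life experiment. Of the 10, 9 are also among the 7240 mRNAs with relative binding to RNA decay factors, and Cbx3 is not in that table. Binding was measured in other mouse embryonic stem cell lines than those of the half-life experiment. Per the study's methods, each carries an endogenous FLAG-Avi tag on Mtr4, Skiv2l, Xrn1 or Aven in a Rosa26Cre-ERT2/BirA-V5 background. These cells were crosslinked with UV light. The series of 183 samples asks which mRNAs the decay factors XRN1, SKIV2L and MTR4 act on, and what the SKIV2L partner AVEN does. The half-life experiment comprised 47 libraries of mouse embryonic stem cells (mESCs), grown in serum and LIF, in 16 groups, each with 3 libraries apart from the 2 of clone 5F at 120 min of day 0. Clone 5F has the genotype Rosa26Cre-ERT2/- Skiv2l fl/fl, and clone 7E is labelled Rosa26Cre-ERT2/BirA-V6 (BirA-V5 in the study's methods) with Skiv2l3xFLAG-Avi/3xFLAG-Avi and Aven-/-, in which, per the study's methods, the same Skiv2l exons are floxed. Each clone was taken at day 0, without 4-hydroxytamoxifen (4OHT), and at day 4 of 0.1 µM 4OHT, which activates CreERT2 to remove exons of Skiv2l. Each culture then received actinomycin D, which blocks transcription, for 120, 240 or 360 min, or a mock treatment with the solvent DMSO. Each genotype is 1 clone, so clone and genotype cannot be told apart, and the study calls the replicates technical, so p-values measure only the spread between these libraries.

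Heterochromatin silencing in mESCs is written and read in layers. Zinc finger proteins bring TRIM28 to transposons and imprinted regions, where SETDB1 methylates histone H3 on lysine 9 and the HP1 proteins, products of the Cbx genes, bind the mark. UHRF1 binds hemimethylated DNA at the replication fork and brings DNMT1, which copies the methylation to the new strand, while ATRX deposits histone H3.3 at repeats and telomeres.

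As a check of the labels, Skiv2l and Aven were read first, as normalized counts, which set the typical gene equal between the libraries of a time point. In clone 5F, Skiv2l stood at 4181, 4167 and 4237 normalized counts in the mock libraries of day 0 and at 4448, 3855 and 4193 in those labelled day 4, with a log2 difference of -0.01 (edgeR's quasi-likelihood test, Benjamini-Hochberg adjusted p = 0.914). In clone 7E it stood at 975, 1046 and 910 at day 0 and at 409, 392 and 370 at day 4, a log2 difference of -1.32 (adjusted p = 7.86e-13). These whole-gene counts gave no sign of exon loss in clone 5F, with an interval of ±2 SE from -0.11 to 0.09 log2. Counts per exon were not read, so the loss was not tested there, and the day of clone 5F is given as labelled throughout. Aven, deleted in clone 7E, was lower there at day 0 (log2 difference -3.90, adjusted p = 4.5e-19). Total gene counts ranged from 24440935 to 34114250 per library. The ratio of mRNA to ERCC spike-in RNA in the mock libraries had a median of 349 in clone 5F at day 0, 347 in clone 5F at day 4 and 322 in clone 7E at day 0, but 152 in clone 7E at day 4, so changes in that last group are changes relative to the other mRNAs. With bulk RNA, fewer cells and less RNA per cell cannot be told apart.

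The 8 embryonic stem cell markers fixed as a list were present in each group, with a summed level of 3257 to 3314 CPM (counts scaled to each library's total) in clone 5F at day 0, 2989 to 3113 at day 4, 3310 to 3434 in clone 7E at day 0 and 2760 to 2849 at day 4. The 4 primitive endoderm markers summed to between 68.6 and 70.45 CPM in clone 5F at day 0 and between 6.63 and 7.60 CPM in clone 7E at day 0. The 4 fibroblast markers summed to at most 9.27 CPM, and the 4 primed or germ layer markers to at most 119.5 CPM. None of the 20 markers was at 0 in the mock libraries, and their part in the results was not tested.

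Stretches of purines, which recur in these coding sequences, differed much in length between the 9 mRNAs of the binding table. They were searched as runs of A and G on the mRNA strand, in transcripts of the Gencode M21 annotation of GRCm38 that have the length the table lists. Of the 7240 mRNAs, 6725 could be matched in this way, 64.1% of them hold a run of at least 12 bases, and the median longest run has 13. The 5 sequences shown are the longest runs (capitals, with 3 flanking bases in lower case) of the mRNA with the highest AVEN value, of the 3 others with the longest runs, and of the only member without a run of 12.

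Ehmt2: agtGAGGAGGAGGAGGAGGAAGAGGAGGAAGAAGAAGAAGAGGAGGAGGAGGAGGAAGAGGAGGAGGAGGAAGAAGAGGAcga
Dnmt1: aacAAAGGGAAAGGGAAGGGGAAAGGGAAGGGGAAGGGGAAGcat
Atrx: accAAAGGGGAAGAAGGGGAAAAAGGAcag
Cbx1: actAGAAGAAGAGGAAGAGGAAtat
Setdb1: aacAAAGGAAAGAGtct

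The run of Ehmt2 has 77 bases in exon 7 of 27 (chr17:34905162-34905238, plus strand), and 0.0595% of the matched mRNAs have one as long. That of Dnmt1 has 39 bases and spans exons 30 and 31 of 39 (chr9:20912292-20912593, minus strand, with the intron between them), a length reached by 0.862% of mRNAs. Atrx has 31 runs of at least 12 bases, the longest with 24 in exon 25 of 35 (chrX:105830985-105831008, minus strand), as long as in 5.96% of mRNAs. Cbx1 has a run of 19 in exon 2 of 6 (chr11:96800849-96800867, plus strand), reached by 14.5%. The longest run of Setdb1 has 11 bases, in exon 7 of 22 (chr3:95346771-95346781, minus strand). The remaining members, Trim28, Uhrf1, Cbx5 and Ehmt1, have longest runs of 13 to 16 bases. A Pumilio element (TGTANATA on the mRNA strand, in the 3' untranslated region) was found in 1 member, Cbx5, which has 3, and in 26.3% of the matched mRNAs. These matches describe the letters only.

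Trim28 was by far the most abundant of the 10 mRNAs, and Cbx3 the least. Per kilobase of merged exons, the mock libraries of clone 5F at day 0 gave 716 ± 16.0 CPM for Trim28 (mean ± SD, n = 3), the scaffold of KRAB zinc finger repression. By mean normalized count, not scaled to length, it ranked 12 of 53380 genes in the same libraries. Of the DNA methylation pair, Uhrf1 had 82.7 ± 3.80 CPM per kilobase and Dnmt1, below Cbx1 and Cbx5 in the order of levels, 58.5 ± 1.89. Among the HP1 genes, Cbx1 (HP1 beta) had 80.5 ± 2.76 CPM per kilobase, Cbx5 (HP1 alpha) 72.3 ± 1.49 and Cbx3 (HP1 gamma) 6.54 ± 0.352. Ehmt2 and Ehmt1, which encode the histone methyltransferases G9a and GLP, had 33.6 ± 2.68 and 14.3 ± 0.748 CPM per kilobase, Atrx 33.2 ± 1.69 and Setdb1 29.35 ± 0.678. Ordered by level, only the neighbours Uhrf1 and Cbx1, and Ehmt2 and Atrx, overlapped in their ranges in these libraries. Cbx3 has 8 named pseudogenes in the annotation and the other members have none. Since reads that map to several places were not counted, the level of Cbx3 is uncertain. The merged exons of Atrx span 21757 bases over 27 transcripts, so its level per kilobase is low for its dominant transcript. In the authors' RPKM values, which come from the tagged lines, Trim28 was again highest, with a median of 414 (percentile 98.6 of the mRNAs), and Ehmt1 lowest of the 9 members listed, with 26.1 (percentile 57.0).

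**Figure D1:**
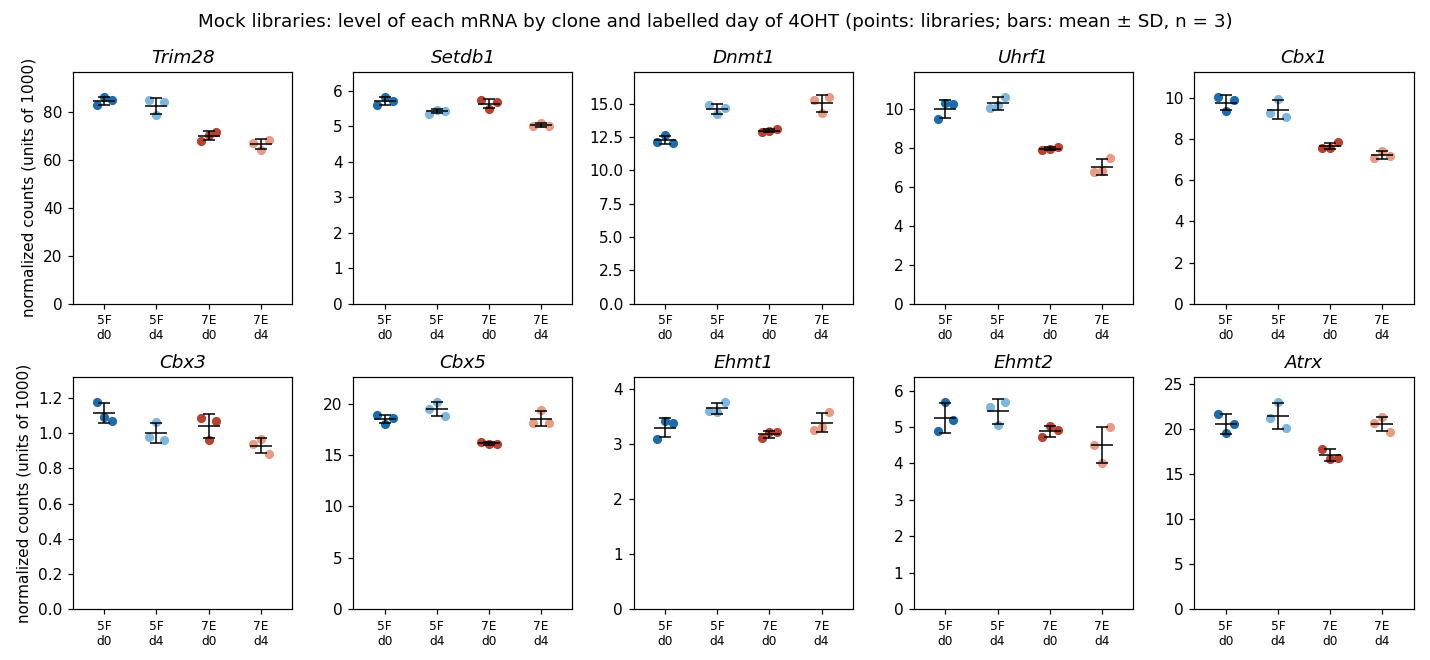
Normalized counts (linear axis from 0, in units of 1000) of the 10 mRNAs in the mock libraries, for clones 5F and 7E at the labelled day 0 (d0) and day 4 (d4) of 4OHT. Points are libraries and bars the mean ± SD (n = 3). On this scale, which sets the typical mRNA equal between libraries, Dnmt1 is higher at day 4 than at day 0 in both clones (in clone 7E not with own spike-ins), and Trim28, Uhrf1 and Cbx1 are lower in clone 7E than in clone 5F at both days.

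The Dnmt1 mRNA rose at day 4 of 4OHT in both clones relative to the other mRNAs, though in clone 7E its value was below 0 when scaled by spike-ins, as given further on. Dnmt1 (chromosome 9, 20907209 to 20959888, GRCm38) had 12154, 12637 and 12026 normalized counts in the mock libraries of clone 5F at day 0 and 14893, 14235 and 14712 in those labelled day 4. In clone 7E, the values were 12877, 12948 and 13121 at day 0 and 15306, 14327 and 15534 at day 4. The days did not overlap in either clone. The log2 change was 0.25 ± 0.043 (SE) in clone 5F, with an adjusted p of 0.000203, and 0.21 ± 0.045 in clone 7E, with an adjusted p of 0.000516 (edgeR's quasi-likelihood test over all genes). The difference between these changes was -0.04 ± 0.057 (adjusted p = 0.749), with an interval of ±2 SE from -0.152 to 0.076.

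Uhrf1, the partner that brings DNMT1 to newly replicated DNA, fell in clone 7E and did not pass the test in clone 5F. Uhrf1 (chromosome 17, 56303321 to 56323486) had 9474, 10318 and 10239 normalized counts in clone 5F at day 0 and 10028, 10190 and 10629 at day 4. In clone 7E, it fell from 7900, 7928 and 8062 to 6789, 6812 and 7478, with no overlap between the days. Its log2 change was 0.04 ± 0.046 in clone 5F (adjusted p = 0.584) and -0.18 ± 0.047 in clone 7E (adjusted p = 0.00373). Uhrf1 was the 1 member called for a difference between the clones in the day 4 change, which was -0.22 ± 0.064 log2 (interaction term in edgeR, adjusted p = 0.0264). Without replicate 1, the adjusted p was 0.104 for the fall in clone 7E and 0.312 for the difference between the clones, and without replicate 2 that of the difference was 0.0535.

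Of the TRIM28 and SETDB1 pair, Setdb1 fell in clone 7E and Trim28 did not pass the test in either clone. Trim28 (chromosome 7, 12999114 to 13031035) had 82884, 86233 and 84729 normalized counts in clone 5F at day 0 and 84888, 78698 and 83831 at day 4, and in clone 7E 67995, 70233 and 71618 at day 0 and 67141, 64201 and 68293 at day 4. The ranges of day 0 and day 4 overlapped in both clones. The log2 changes were -0.04 ± 0.045 and -0.07 ± 0.045 (adjusted p = 0.591 and 0.214). Setdb1 (chromosome 3, 95323525 to 95357202), the H3 lysine 9 methyltransferase that TRIM28 recruits, had 5734, 5488 and 5693 normalized counts in clone 7E at day 0 and 5003, 5099 and 5018 at day 4. Its log2 change there was -0.16 ± 0.045 (adjusted p = 0.00605), with an adjusted p of 0.147 without replicate 1. In clone 5F, the log2 change of Setdb1 was -0.08 ± 0.043 (adjusted p = 0.208). The exons of Setdb1 share 75 bases with Cers2 and 249 with Gm37500 on the other strand.

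Of the 3 HP1 genes, Cbx5 rose in clone 7E relative to the other mRNAs (not with own spike-ins), and Cbx1 and Cbx3 did not pass the test in either clone. Cbx5 (chromosome 15, 103191544 to 103239816) had 16311, 16128 and 16060 normalized counts in clone 7E at day 0 and 18148, 19439 and 18115 at day 4, a log2 change of 0.20 ± 0.045 (adjusted p = 0.00092). In clone 5F, it had 18886, 18071 and 18582 at day 0 and 19519, 20188 and 18810 at day 4, and the ranges overlapped (log2 change 0.08 ± 0.044, adjusted p = 0.225). Cbx1 (chromosome 11, 96789127 to 96808640) had log2 changes of -0.05 ± 0.047 in clone 5F and -0.09 ± 0.045 in clone 7E (adjusted p = 0.455 and 0.131). Cbx3 (chromosome 6, 51470360 to 51483704), with 1178, 1091 and 1072 normalized counts in clone 5F at day 0 and 981, 1065 and 959 at day 4, had log2 changes of -0.15 ± 0.061 and -0.16 ± 0.065 (adjusted p = 0.0743 and 0.0518). The Cbx3 change passed the threshold without replicate 2 in each clone, at -0.21 (adjusted p = 0.0148) in clone 5F and -0.24 (adjusted p = 0.0122) in clone 7E.

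Atrx, which encodes a chromatin remodeler, rose in clone 7E relative to the other mRNAs (not with own spike-ins). Atrx (chromosome X, 105797615 to 105929403) had 17792, 16685 and 16743 normalized counts in clone 7E at day 0 and 20578, 21264 and 19670 at day 4, with no overlap. The log2 change was 0.26 ± 0.046 (adjusted p = 6.64e-05). In clone 5F, the libraries of day 0 held 21606, 19483 and 20476 and those of day 4 held 21174, 22964 and 20075 (log2 change 0.06 ± 0.051, adjusted p = 0.424). The difference between the clones was 0.20 ± 0.070 log2 (adjusted p = 0.0619), and it passed the threshold without a filter on low counts (adjusted p = 0.0139) and without replicate 2 (adjusted p = 0.0191).

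Of the methyltransferase partners GLP and G9a, Ehmt1 rose in clone 5F and Ehmt2 did not pass the test. Ehmt1 (chromosome 2, 24789928 to 24919614) had 3104, 3422 and 3385 normalized counts at day 0 and 3605, 3594 and 3771 at day 4 (log2 change 0.15 ± 0.049, adjusted p = 0.032). That call was lost without replicate 1 (adjusted p = 0.283) or replicate 3 (adjusted p = 0.170), with the replicate number as a block (adjusted p = 0.0922) and with own spike-ins (0.08 log2, adjusted p = 0.469). In clone 7E, the log2 change of Ehmt1 was 0.09 ± 0.051 (adjusted p = 0.16). Ehmt2 (chromosome 17, 34898469 to 34914052) had log2 changes of 0.05 ± 0.055 in clone 5F and -0.12 ± 0.060 in clone 7E (adjusted p = 0.553 and 0.13). Ehmt2 passed the threshold in clone 5F without replicate 2, at 0.16 (adjusted p = 0.00753), and in clone 7E without replicate 3, at -0.19 (adjusted p = 0.00567). Cbx1 likewise passed in clone 5F without replicate 2, at -0.12 (adjusted p = 0.0356). Ehmt2 lies 48258 bases from the targeted Skiv2l gene, on the opposite strand.

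In counts, 2 of 10 members rose and 0 fell in clone 5F, where 24.5% of the 16354 genes tested were called and 12.8% were called higher. In clone 7E, 3 rose and 2 fell, where 40.1% of 16333 genes were called. For the difference between the clones, 1 of 10 was called, as lower, against 11.9% of 17187 genes in either direction and 5.29% as lower. These shares lie near the background. The median log2 change over the members was 0.0444 in clone 5F and -0.0791 in clone 7E, beside -0.0045 and -0.0084 over all genes. When each library was scaled by its own spike-ins, the all-gene median became -0.0739 in clone 5F and -1.11 in clone 7E, and the share of calls that were higher went from 52.4% to 31.2% and from 51.6% to 1.6%. On that scale, the clone 7E log2 values of Dnmt1, Cbx5, Ehmt1 and Atrx turned to -0.88, -0.90, -1.01 and -0.83, each still above the median of all genes. For the difference between the clones, the share of higher calls moved from 55.7% to 0.354%.

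**Figure D2:**
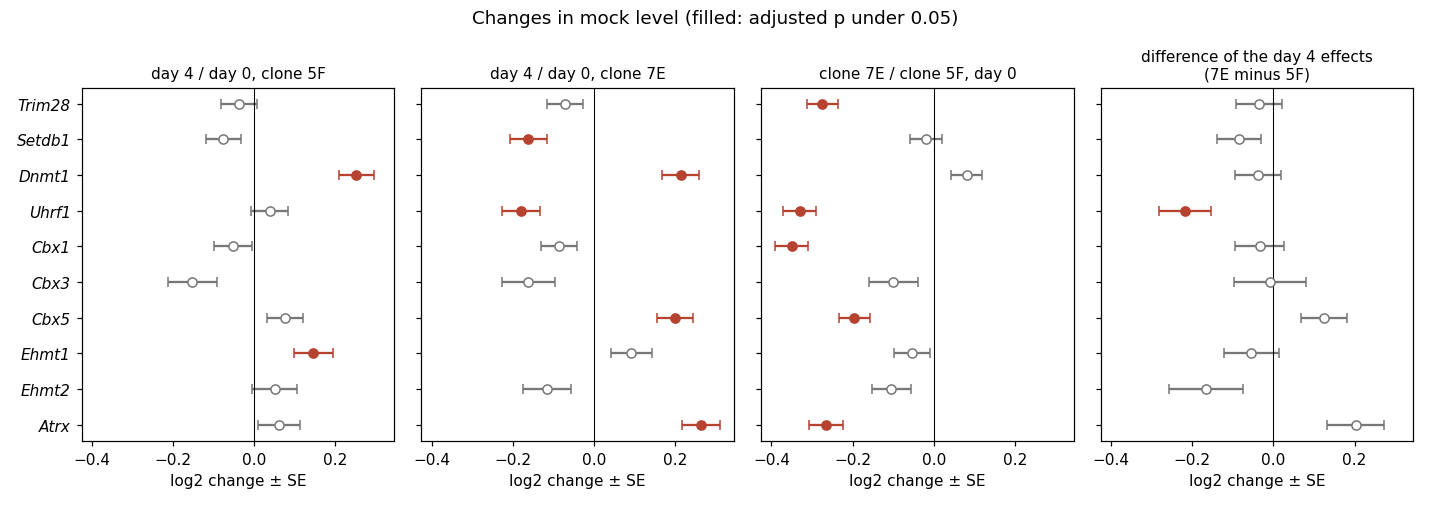
Log2 change (± SE, x axis) of each mRNA in the mock libraries for day 4 against day 0 in clone 5F and in clone 7E, for clone 7E against clone 5F at day 0, and for the difference of the day 4 changes. Filled points have an adjusted p under 0.05 in edgeR: 2, 5, 5 and 1 of the 10 members, in that order.

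Before any 4OHT, 5 of 10 members were lower in clone 7E than in clone 5F and 0 were higher, where 39.8% of 16257 genes were called, 20.1% higher and 19.8% lower. The untreated clones differ in Skiv2l itself as well as in Aven, since Skiv2l was lower in clone 7E, with a log2 difference of -2.10 ± 0.050 (adjusted p = 9.73e-20). Cbx1 had 7583, 7587 and 7842 normalized counts in clone 7E against 10062, 9366 and 9914 in clone 5F, a log2 difference of -0.35 ± 0.040 (adjusted p = 1.75e-07). Uhrf1 differed by -0.33 ± 0.041 log2 (adjusted p = 5.83e-07), Trim28 by -0.27 ± 0.038 (adjusted p = 3.2e-06), Atrx by -0.27 ± 0.043 (adjusted p = 2.28e-05) and Cbx5 by -0.20 ± 0.038 (adjusted p = 0.00019). The libraries of clones 5F and 7E did not overlap for any of these 5 mRNAs at day 0. Dnmt1 and Ehmt2 were not called, at 0.08 ± 0.038 and -0.10 ± 0.048 (adjusted p = 0.0973 and 0.0883). Libraries with the same replicate number varied together between the clones at day 0, and with the replicate number as a block Dnmt1 (adjusted p = 0.000382) and Ehmt2 (adjusted p = 0.000189) were also called, 7 of 10 members among 8106 genes against 6475 without the block. The primitive endoderm markers were also lower in clone 7E, by the sums given above, while the 4 primed or germ layer markers were higher, with 117.6 to 119.5 CPM against 66.5 to 68.3 in clone 5F, and the part of either list in these differences was not tested. With own spike-ins, the all-gene median became -0.168, 20.4% of the calls were higher in place of 50.3%, and 9 of 10 members were called lower.

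The 10 mRNAs covered a wide range of stability, and most outlived the typical mRNA. Half-lives were taken from the slope of the log of normalized counts, with 1 added, over the 4 time points. Ehmt2 was the slowest to decay, with 94.2 ± 4.25% of the mock level left at 360 min in clone 5F at day 0 (SD, n = 3) and a slope of -0.0116 ± 0.0126 log2 per hour, which does not differ from 0 by more than its error. Its fitted half-life there was 5177 min, with no finite upper limit, and in the other groups 1763, 1429 and 1109 min. Cbx1 was next, with 73.9 ± 2.14% left and a half-life of 815 min (725 to 932 min for ±1 SE of the slope). Dnmt1 followed with 68.05 ± 1.68% and 653 min, and Trim28 with 66.5 ± 2.65% and 603 min.

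Uhrf1 had 62.3 ± 1.98% left at 360 min, Cbx5 63.7 ± 1.50%, Ehmt1 51.4 ± 2.51% and Setdb1 49.9 ± 1.22%. Cbx3 and Atrx decayed fastest, with 36.4 ± 0.521% and 39.8 ± 2.76% left and half-lives of 248 and 268 min. The median half-life over 7240 mRNAs was 299 min in the same group, and the members lay between the percentiles 38.9 (Cbx3) and 99.5 (Ehmt2) of stability, 8 of 10 above the median. Setdb1 and Ehmt1 lost most of what they lost in the first 120 min, when 64.3 ± 0.936% and 62.9 ± 4.20% were left (n = 2), so their courses were not straight on a log scale. Ehmt2 stayed the slowest, and Cbx3 and Atrx the fastest pair, in each group with each library's own spike-ins, without the mock libraries and without each replicate in turn, except that without replicate 1 Ehmt1 decayed faster than Cbx3 in clone 7E at day 0 (slopes of -0.207 and -0.204 log2 per hour). The values themselves moved, since without the mock libraries, 37 of the 40 slopes shifted by over 1 SE, 39 of 40 towards slower decay, and without replicate 1 all 40 became faster.

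**Figure D3:**
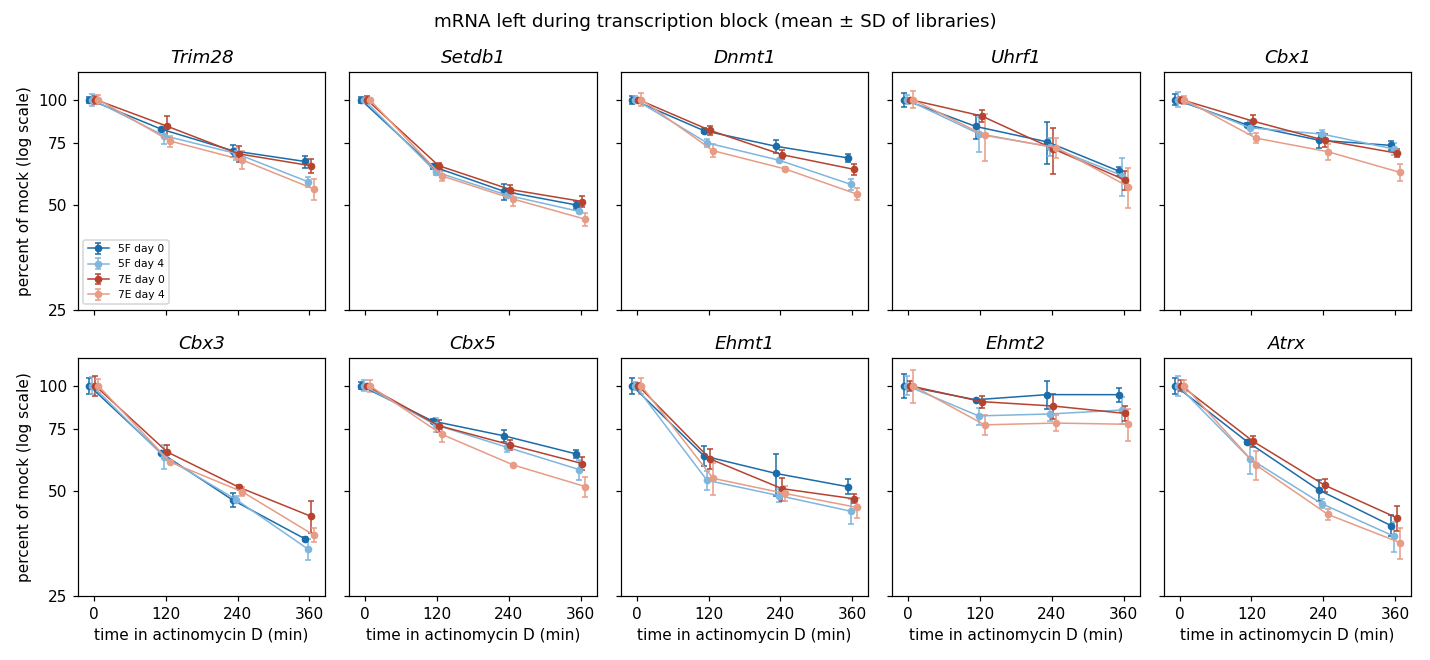
Percent of the mock level left (log axis) against time in actinomycin D (0, 120, 240 and 360 min) for each mRNA, in clones 5F and 7E at day 0 and day 4 of 4OHT, as mean ± SD of 3 libraries (2 for clone 5F, day 0, 120 min). Ehmt2 stays highest in each group, and Cbx3 and Atrx fall to 34.1% to 42.25% by 360 min.

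After adjustment over all genes, no member was called for a change in decay between day 0 and day 4 of 4OHT. At 360 min, Dnmt1 had 68.05 ± 1.68% of its mock level left in clone 5F at day 0 and 57.1 ± 2.10% in the libraries labelled day 4, and in clone 7E 63.1 ± 2.12% and 53.6 ± 2.21%. Trim28 had 66.5 ± 2.65% and 58.2 ± 1.87% in clone 5F, and 64.6 ± 2.87% and 55.4 ± 3.98% in clone 7E. For Cbx5 the values were 63.7 ± 1.50% and 57.5 ± 3.83% in clone 5F, and 59.8 ± 2.59% and 51.4 ± 3.37% in clone 7E. In these 6 comparisons, the means at 360 min were lower at day 4.

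The change in slope of Dnmt1 was -0.04 ± 0.013 log2 per hour in clone 5F (edgeR's quasi-likelihood test, p = 0.00917 before and 0.835 after adjustment over all genes) and -0.03 ± 0.015 in clone 7E (p = 0.0344 before and 0.458 after). Trim28 had -0.03 ± 0.012 in clone 5F (adjusted p of 1) and -0.03 ± 0.015 in clone 7E (adjusted p = 0.555). Cbx5 had -0.02 ± 0.013 in clone 5F (adjusted p of 1) and -0.04 ± 0.016 in clone 7E (adjusted p = 0.377). In all, 0 of 10 members were called in clone 5F, where 0.224% of 17851 genes were called, and 0 of 10 in clone 7E, where 1.10% of 17436 genes were. An unadjusted p under 0.05 was reached by 2 members in each clone, Trim28 and Dnmt1 in 5F and Dnmt1 and Cbx5 in 7E, and by 701 and 1633 of all genes. DESeq2 also called 0 members. With the libraries' own spike-ins, no member had an unadjusted p under 0.05 in either clone.

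The slope change was negative for 10 of 10 members in clone 5F, with a median of -0.0177 log2 per hour beside 0.0019 over all genes, and for 9 of 10 in clone 7E, with a median of -0.0252 beside -0.0014. With own spike-ins, it was negative for 10 of 10 in clone 5F (median -0.0294 beside -0.0103 over all genes) and for 7 of 10 in clone 7E (median -0.00435 beside 0.0193), where Uhrf1, Ehmt1 and Ehmt2 were above 0 and the fitted slope of Dnmt1 was -0.116 log2 per hour at day 0 and -0.129 at day 4. Without the mock libraries, 7 of 10 were negative in each clone, with medians of -0.0042 and -0.00783. Whether other mRNAs of like level and stability share this direction was not tested. On the first scaling, the intervals of ±2 SE bound the change of Dnmt1 between -0.0641 and -0.0112 log2 per hour in clone 5F and between -0.0621 and -0.00355 in clone 7E. Between the clones at day 0, 0 of 10 members were called, against 0.0399% of 17559 genes (7 genes), and none had an unadjusted p under 0.05. For the difference between the clones in the day 4 change, 0 of 10 members were called and none had an unadjusted p under 0.05. There edgeR called 0 of 18846 genes, DESeq2 called 3 and 513 genes had an unadjusted p under 0.05. The direction of the few genes called in decay depended on the scaling: in clone 5F 62.5% of calls were slower decay, 84.2% with own spike-ins and 79.2% with TMM, in clone 7E 44%, 71.8% and 56.8%, and between the clones 85.7%, 50% and 97.8%.

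In the binding table, the members leaned to SKIV2L more than to MTR4. CRAC maps RNA crosslinked to a tagged protein, and the authors' relative binding of an mRNA to MTR4, SKIV2L and XRN1 sums to 1 over these 3 proteins. These are values of pooled libraries, without replicate error, and the depth behind each is unknown. All 9 listed members had a SKIV2L value at or above the median of all mRNAs, with a median of 0.356 beside 0.267, Cbx5 only just (percentile 50.1). With a minimum of 5 for the median RPKM, 7 of 9 did, with Cbx5 at percentile 44.9 and Ehmt1 at 47.7, and with binding divided by RPKM 8 of 9, with Cbx5 at 49.7. For MTR4, a helicase of the nuclear exosome, 2 of 9 lay above the median, and the median was 0.218 beside 0.319. For XRN1, which degrades from the 5' end, 5 of 9 did (median 0.381 beside 0.337), and for AVEN, whose value lies outside the sum and is, by the study's description, relative to the counts of the 3 other proteins together (the column itself names no denominator), 4 of 9 did (median 0.295 for both).

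The DNA methylation pair had alike profiles, with SKIV2L values of 0.541 for Dnmt1 (percentile 92.1) and 0.513 for Uhrf1 (percentile 89.7), and MTR4 values of 0.194 and 0.196. Cbx1 combined a SKIV2L value of 0.528 (percentile 90.9) with the lowest XRN1 value of the members, 0.0865 (percentile 3.02). The other HP1 gene in the table, Cbx5, lay at the opposite end for XRN1, with a value of 0.507 (percentile 83.8). For AVEN, Cbx5 and Cbx1 were each below the median, with 0.188 (percentile 21.5) and 0.269 (percentile 42.9). Atrx was the member with the highest MTR4 value, 0.472 (percentile 76.2). Ehmt2, with the 77-base purine run shown above, had an AVEN value of 0.817 (percentile 98.4), and the next was Trim28 with 0.400 (percentile 74.0). Dnmt1, with the next longest run, had an AVEN value of 0.295 (percentile 49.8), and Atrx with its 31 runs 0.224 (percentile 30.5). Setdb1 without a run of 12 had 0.310 (percentile 53.9), and Ehmt1 0.264 (percentile 41.4). The minimum for the median RPKM moved no percentile by over 10, and dividing by RPKM moved 3 of 27 by over 10, at most by 21.6 for the XRN1 value of Cbx5.

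**Figure D4:**
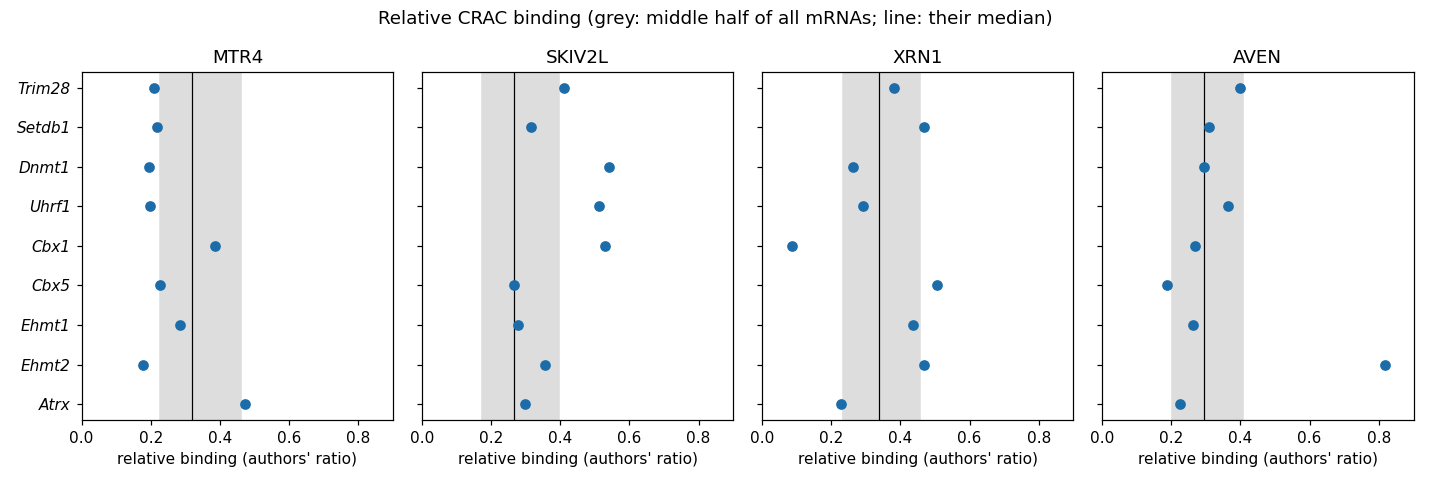
The authors' relative binding of the 9 listed members to MTR4, SKIV2L, XRN1 and AVEN (x axis, ratio from pooled libraries), with the median and quartiles of 7240 mRNAs. The Ehmt2 value of 0.817 for AVEN and the Cbx1 value of 0.0865 for XRN1 are the highest and the lowest values of the members.

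The silencing pathway beyond the members was read from a list of 36 further factors, all tested. At day 4, 6 rose and 6 fell in clone 5F (12.8% of all genes were called higher and 11.6% lower), and 7 rose and 11 fell in clone 7E (20.7% and 19.4% of all genes), with medians of 0.000405 and -0.0515 log2. With own spike-ins, 0 were higher and 6 lower in clone 5F, and 0 higher and 36 lower in clone 7E (median -1.15 beside -1.11 over all genes). Zfp57, a zinc finger protein of imprinted regions that recruits TRIM28, fell in both clones (log2 change -0.25 ± 0.042 in 5F, adjusted p = 0.000222, and -0.78 ± 0.048 in 7E, adjusted p = 4.69e-12), and in 7E by more than in 5F (difference -0.53 ± 0.058, adjusted p = 7.69e-07). Dnmt3l, the cofactor of the de novo methyltransferases, rose by 0.21 in clone 5F and 0.98 in clone 7E, but its clone 7E value turned to -0.12 and its clone 5F call was lost (adjusted p = 0.1325) with own spike-ins. Cdca7, which works with the remodeler HELLS, had -0.23 in clone 5F (adjusted p = 0.000461), and Tet2, a methylcytosine dioxygenase, -0.78 in clone 7E. The difference between the clones was called for 2 factors as higher and 6 as lower (6.64% and 5.29% of all genes), with Dnmt3l at 0.77 and Tet2 at -0.60 the largest, and that of Dnmt3l turned to -0.26 with own spike-ins, when 0 factors were higher and 36 lower (median -1.06).

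Before 4OHT, 1 further factor was higher and 12 lower in clone 7E, where 20.1% of all genes were higher and 19.8% lower. With own spike-ins, 0 were higher and 26 lower (median -0.232 beside -0.168 over all genes). Dnmt3l (log2 difference -1.35), Dnmt3b (-1.32) and Dnmt3a (-0.59), which place new DNA methylation, differed most. None of the 36 was called for decay in any comparison.

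The 20 germline and early embryo genes listed as silenced in mESCs were not all silent here. In clone 5F at day 0, their means reached 31 CPM for Ddx4 and 108 CPM for Tex19.1, while others were near 0. Among those tested, a larger share than of all genes rose at day 4 relative to the other mRNAs. With own spike-ins, 9 of 17 fell in clone 7E. In clone 5F, 11 of 19 tested rose and 0 fell (12.8% of all genes were called higher), and in clone 7E 16 of 17 rose and 0 fell (20.7% of all genes). Their summed level was 238 to 247 CPM at day 0 and 255 to 272 CPM at day 4 in clone 5F, and 154 to 157 CPM and 231 to 243 CPM in clone 7E. Tex19.1 alone gave the largest part of these sums, with means of 108 and 102 CPM in clone 5F and 51.6 and 78.3 CPM in clone 7E. The sums are thus not a level of the whole list. The largest rises in clone 5F were those of Zscan4f (log2 change 2.58, from a mean of 0.264 to 1.52 CPM), Tcstv3 (2.46) and Usp17lc (2.035). In clone 7E, they were those of Usp17lc (3.37), Zscan4d (3.04, from 0.391 to 3.18 CPM) and Zscan4c (2.48). These are members of near-identical families, so single values are uncertain. Some were near 0 at day 0, with Usp17lc at 0.0352 to 0.103 CPM in clone 7E and Tcstv3 at 0.0357 to 0.108 CPM in clone 5F. The low-count filter ran within each comparison, so the numbers tested differ. A gene near 0 in 1 group could pass only through the other group, and could then hardly be called the other way. The list was also chosen with earlier results of these data known. For both reasons, its shares beside those of all genes are a description and no test. Over the same list, 8 of 19 had a larger rise in clone 7E (6.64% of all genes), with Zscan4d (1.55), Taf7l (1.14) and Dazl (0.70) the largest differences, and at day 0 clone 7E was lower in 8 of 14 (19.8% of all genes), most in Zscan4d (-1.65), Tex101 (-1.21) and Tex19.1 (-1.03). With own spike-ins, 9 rose and 0 fell in clone 5F, but in clone 7E 6 rose and 9 fell (list median -0.275 beside -1.11 over all genes), and the difference between the clones turned to 12 lower and 0 higher. None of the list was called for decay. The embryonic stem cell markers were lower at day 4 in both clones, by the sums given above, and their part in these changes was not tested, nor was any link between the silencer mRNAs and these genes.

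The mRNAs with the courses most like those of Trim28 and Dnmt1 were not among the 10 members. Likeness was the Euclidean distance between log2 group means over the 16 groups, relative to clone 5F day 0 mock, among 9930 genes with a mean of at least 100 normalized counts. For Trim28, Prim1 (distance 0.206), Rbbp4 (0.213) and Eif2b5 (0.216) were nearest, with a median distance of 1.91, and the nearest member was Uhrf1 (0.414, rank 112). For Dnmt1, Nup188 (0.162), Aco1 (0.207) and Ift88 (0.22) were nearest, with a median of 2.33, and the nearest member was Cbx5 (0.995, rank 1351).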

How the data were processed

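Reads were 50-nt single-end from ribosomal RNA-depleted libraries with ERCC spike-ins. The authors mapped them with STAR (2.5.0a) to GRCm38 with ERCCs, kept uniquely mapped reads and deposited raw counts per gene. Which strand was counted is not given in the sources used here. The authors' deposited relative binding is a ratio of pooled, scaled CRAC counts, the deposited score divides it by RPKM, and the deposited RPKM was measured by the authors in the tagged lines. The score served only as an alternative. Their deposited tables also hold log2 fold changes, adjusted p-values and mean levels of the authors' own DESeq2 comparisons, which were not used.

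Size factors (DESeq2 1.42.0 in R 4.3.3) were computed within each time point and combined with 1 spike-in factor per time point (1, 0.649, 0.531 and 0.438) from the 34 of 92 ERCCs with a mean above 50. Counts were tested by edgeR 4.0.16 (quasi-likelihood, filterByExpr, Benjamini-Hochberg threshold of 0.05), levels in the mock libraries and decay as the interaction with time. A ± on a log2 change is its SE. Annotation was Gencode M21, which gave 53274 of 53380 genes a symbol. Replicate pairs differed beyond sampling noise (chi-square per gene at least 3.2 over 46 pairs). Depth varied little between libraries. Replicate spread limits the precision for well-counted genes, and counting error also does for genes with few reads, such as the lowest of the silenced list. Columns of per-sample values left unused numbered 0. The tests were run on simulated data first.

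The replicate numbers paired the libraries of clones 5F and 7E at day 0 in mock (correlations of deviations 0.189 to 0.444, as the data show, with no source for it in the labels), but not the days within a clone (-0.397 to -0.0856 in 5F, -0.35 to -0.04 in 7E). All 10 members are named in each comparison. Skiv2l and Aven are named as a check, as are up to 3 genes with the largest called change of 2 further lists, and the 3 genes nearest to Trim28 and to Dnmt1. The members and lists were chosen with earlier results of these data known. Alternatives were own spike-in or TMM scaling, DESeq2, no filter on low counts, a replicate block, and leaving out replicates or time points.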

Additional observations from a re-analysis of the deposited data

Results flagged for a closer look

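The Uhrf1 mRNA changed differently between the clones with 4OHT, by -0.219 on the log2 scale (clone 7E minus clone 5F), and was singled out because the difference itself passed its test (interaction in edgeR over all 12 mock libraries, adjusted p = 0.0264). In the same test, the adjusted p was 0.312 without replicate 1 and 0.0535 without replicate 2. With all replicates, the test called 11.9% of 17187 genes, beside 1 of 10 members. Each of the 3 day 4 libraries of clone 7E lay below each of the 3 of day 0, while the 2 groups of clone 5F overlapped. The mRNA to spike-in ratio of clone 7E was 322 at day 0 and 152 at day 4, and its part in the difference was not tested.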

How the results depend on the processing

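TMM and DESeq2 kept the call and direction of all 40 mock results of the members, and all 40 decay results stayed without a call in every alternative run. With each library's own spike-ins, all 10 members were called lower in clone 7E at day 4 (15290 genes), with Dnmt1 at -0.88, Cbx5 at -0.90, Ehmt1 at -1.01 and Atrx at -0.83, 9 members were called between the clones at day 0, and for the difference of the day 4 changes all 10 (14401 genes), with Cbx5 at -0.91 and Atrx at -0.83. In clone 5F the same scaling lost Ehmt1 (adjusted p = 0.469) and added Cbx3 (adjusted p = 0.0477). The replicate block left 1 member called in clone 5F (Dnmt1, with Ehmt1 at an adjusted p of 0.0922 in edgeR), raised the count between the clones to 7 members and 8106 genes, and changed no other member's call. In clone 5F and in clone 7E at day 4, 0 of 3 mock numbers correlated best with themselves across days. Without a filter, the difference between the clones was called for 2 members. Leaving out each replicate in turn gave, in mock, 1 to 5 members and 1852 to 4414 genes in clone 5F, 3 to 6 members and 4323 to 5980 genes in clone 7E, and 0 to 1 members and 751 to 1445 genes for the difference.

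In decay, clone 5F had 40 genes called, and 19 with own spike-ins, 14 without mock and 2 to 3 without a replicate. Clone 7E had 191, and 103 with own spike-ins, 327 with DESeq2, 125 without a filter, 90 without 360 min and 23 to 67 without a replicate. Between the clones 7 were called, and 2 with own spike-ins, 93 with TMM, 42 with DESeq2, 25 without mock, 1 without 360 min and 0 to 1 without a replicate. For the difference 0 were called, and 1 with own spike-ins, 3 with DESeq2 and 5 without mock. The cause was not tested.

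The limits are 1 clone per genotype, technical replicates, pooled binding values without error, uncertain Cbx3 counts, and half-lives that shift with the time points used.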
